A study of Glycine max with 6 samples.

Results

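Ethylene synthesis and signalling genes were examined in soybean (Glycine max) roots grown at pH 4.2 (acid treatment) or pH 5.8 (control). They were chosen by the protein descriptions in the deposited gene tables, which had to name an S-adenosylmethionine (SAM) synthase, a 1-aminocyclopropane-1-carboxylate (ACC) synthase or oxidase, an ethylene receptor, an ETHYLENE INSENSITIVE protein or an EIN3-binding F-box (EBF) protein, with ethylene-responsive transcription factors left out. The rule used no measured value and gave 88 genes of 48667 listed in at least 1 library. Each pH had 3 libraries, and each was made from the roots of 2 pooled plants after 30 days in hydroponic culture. The study's methods name the cultivar as Huachun 6, whereas the sample titles carry the code YC03-3, which is not explained there, and the only labelled difference between the groups was the pH. Neither group is labelled with a mutation or a transgene.

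Ethylene is a gaseous plant hormone made from methionine. SAM synthase forms S-adenosylmethionine, ACC synthase converts it to ACC and ACC oxidase converts ACC to ethylene. In Arabidopsis, receptors in the endoplasmic reticulum keep the kinase CTR1 active until they bind ethylene, after which the membrane protein EIN2 transmits the signal to the transcription factors EIN3 and EIL1, while the F-box proteins EBF1 and EBF2 target these factors for degradation. ACC oxidase, receptor and EBF genes are themselves known to respond to ethylene in several plants, and in roots the hormone is known for its part in elongation, root hair growth and aerenchyma.

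The libraries held between 9137226 and 9358750 expected counts, so that 3 counts, the upper limit that a count of 0 allows, corresponded to between 0.312 and 0.34 CPM (counts scaled to library size). On the first principal component of all genes, which held 42.9% of the variance, control replicate 2 (11.5) lay between the other controls (-60.1 and -103) and the acid-treated libraries (23.1 to 74). On the second (22.2%), acid replicate 1 (-70.8) stood at one end and control replicate 2 (77.4) at the other. Casparian strip genes of the root endodermis were detected in every library (summed FPKM 38.3, 122 and 85 in the controls and 118, 101 and 125 at pH 4.2), as were chlorophyll a-b binding genes, which mark green tissue (752 to 1485). The part of these differences in the results below was not tested. For several of the results that rest on acid replicate 1 or control replicate 2, but not for all, values without that library are also given.

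Low counts removed 23 of the 88 genes, and the other 65 entered edgeR's quasi-likelihood test. FPKM, fragments scaled to transcript length and library size, is the level given for each library, and differences are log2 fold changes of pH 4.2 over pH 5.8 with their standard errors (SE). A gene was called when its Benjamini-Hochberg adjusted p, taken over all 33490 genes tested, fell below 0.05 with a change of 2-fold or more. By this rule edgeR called 187 genes in all (0.558%), and 0 of the 65 ethylene genes. At an unadjusted p under 0.05, 18 of the 65 were higher at pH 4.2 (27.7%, against 4.21% of all genes tested) and 3 were lower (4.62%, against 7.61%). DESeq2, run on the same counts, called 6 of the 74 ethylene genes that it gave an adjusted p (8.11%, against 2.77% of all genes), and all 6 were higher at pH 4.2, a direction called in 1.22% of all genes. The log2 fold change was above 0 in 39 of the 65 (60%, against 49.7% of all genes), with a median of 0.22 over the 65 and -0.0027 over all genes. The acid-treated libraries were all above the controls in CPM in 13 genes (20%, against 7.17%) and all below in 7 (10.8%, against 9.25%). No ethylene gene is therefore described here as having risen or fallen by the main test.

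The counts by step were as follows, without a test between the steps. Of the 21 ACC oxidase genes tested, 9 were higher at an unadjusted p under 0.05, against 4.21% of all genes tested. So were 4 of the 5 receptor genes and 3 of the 7 EBF genes. The counts were 2 of 15 for ACC oxidase homologues and 0 for the 7 SAM synthase, 2 ACC synthase and 8 EIN3-like genes tested. The 3 genes that were lower were 2 ACC oxidase homologues and 1 EIN3-like gene. Single libraries moved these counts. ACC oxidase genes were 4 of 21 without acid replicate 1, 8 of 21 without acid replicate 2 and 11 of 22 without acid replicate 3. They were 7, 6 and 4 of 22 without control replicates 1, 2 and 3. Receptor genes were 2 of 5 without acid replicate 1 and 3 of 5 without acid replicate 2 or 3. They were 1, 4 and 2 of 5 without control replicates 1, 2 and 3. EBF genes were 0 of 7 without acid replicate 1 or control replicate 1, 5 of 7 without control replicate 2, and 2 of 7 without acid replicate 2, acid replicate 3 or control replicate 3. Over all genes tested, the share higher at this threshold was 3.49%, 2.86% and 3.6% without acid replicates 1, 2 and 3. It was 4.97% without control replicate 1, 7.5% without control replicate 2 and 3.55% without control replicate 3. With 3 libraries against 3, an exact permutation test of a single value cannot go below a p of 0.1, so no test is given for summed levels, and all p-values measure only the spread between these libraries.

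**Figure D1:**
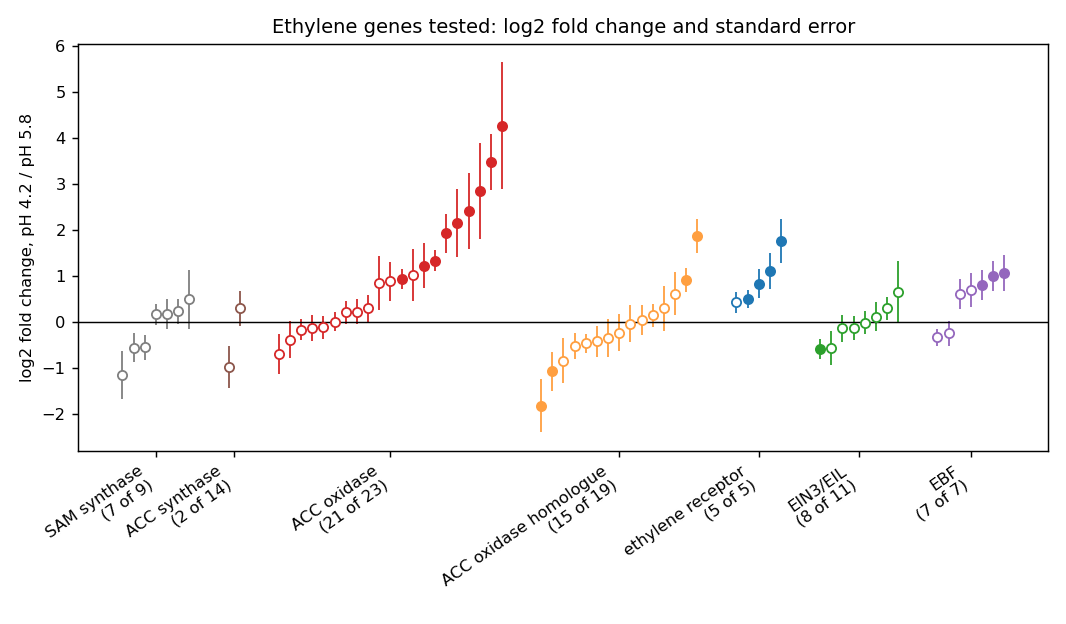
Log2 fold change (pH 4.2 over pH 5.8, vertical axis) of each tested ethylene gene, ordered by value within its role class. Bars are 1 standard error derived from the edgeR test statistic. Filled points have an unadjusted p under 0.05, and the labels give the genes tested of those listed. The ACC oxidase class reaches from -0.69 to 4.27, whereas all 5 receptor genes lie above 0, between 0.42 and 1.76.

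SAM synthase supplies the methyl donor of many reactions besides ethylene synthesis, and its 9 genes were summed to a high level that was about the same at both pH values. Their summed FPKM was 733, 1075 and 985 in the controls and 924, 831 and 1005 in the acid-treated libraries. The groups overlapped, with a mean of 931 ± 177 (SD, n = 3) at pH 5.8 and 920 ± 87.2 (SD, n = 3) at pH 4.2. Between 95.2% and 96.8% of this level came from 4 genes.

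Glyma.15G190500 was the most abundant of these 4. Its FPKM was 265, 506 and 363 in the controls and 409, 385 and 470 in the acid-treated libraries, and its log2 fold change was 0.17 (SE 0.32, edgeR adjusted p = 0.862). Control replicate 2 held the highest value and control replicate 1 the lowest, with all acid-treated libraries between them. Glyma.07G233800 had an FPKM of 189, 201 and 340 in the controls and 192, 145 and 148 at pH 4.2, with a log2 fold change of -0.56 (SE 0.32, edgeR adjusted p = 0.559). Control replicate 3 alone stood high, and acid replicate 1 lay within the range of the controls. RSEM had shared reads of this gene with another gene in 5 libraries, so its level is less certain. The weakly expressed Glyma.10G144300 had the SAM synthase class's largest difference (-1.15, SE 0.52, edgeR adjusted p = 0.446), at an FPKM of 0.26 to 1.46 over the 6 libraries.

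ACC synthase, the step that usually limits ethylene formation, was the least expressed class. Only 2 of its 14 genes passed the filter, and 9 of the 14 stayed under an FPKM of 1 in every library. Summed FPKM was 5.86, 6.21 and 9.35 in the controls and 15.4, 7.83 and 8.09 at pH 4.2, so only acid replicate 1 lay above the controls.

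Glyma.05G211700, whose RefSeq symbol is ACS1, was the main contributor. Its FPKM was 3.33, 3.12 and 6.38 in the controls and 7.24, 4.63 and 3.53 at pH 4.2. The groups overlapped, the log2 fold change was 0.29 (SE 0.37, edgeR adjusted p = 0.799), and it became -0.057 without acid replicate 1. Glyma.07G128000 was lower in each acid-treated library (0.59, 0.58 and 0.79) than in any control (0.9, 1.16 and 1.91), with a log2 fold change of -0.98 (SE 0.45) that did not pass at an unadjusted p of 0.058.

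A pair of ACC synthase genes with similar descriptions did not pass the filter but was seen mainly in acid replicate 1. Glyma.09G255000 had 0, 1 and 0 counts in the controls and 60, 9 and 0 at pH 4.2. Glyma.18G238100 had 2, 0 and 0 counts in the controls and 26, 1 and 1 at pH 4.2. Both thus had between 0 and 2 counts in every control and in acid replicate 3, and their level in acid replicate 1 reached an FPKM of 4.15 and 1.65. The other ACC synthase genes that were not tested had an FPKM of at most 1.08 in any library.

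ACC oxidase carries out the final step and had the largest differences. Its 23 genes summed to an FPKM of 611, 459 and 614 in the controls and 1700, 868 and 514 at pH 4.2. Acid replicate 1 stood far above the controls, acid replicate 2 was above each control, and acid replicate 3 lay among them. The acid-treated mean was therefore 1027 ± 609 (SD, n = 3) against 561 ± 88.7 (SD, n = 3), a difference smaller than the spread of the acid-treated libraries.

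**Figure D2:**
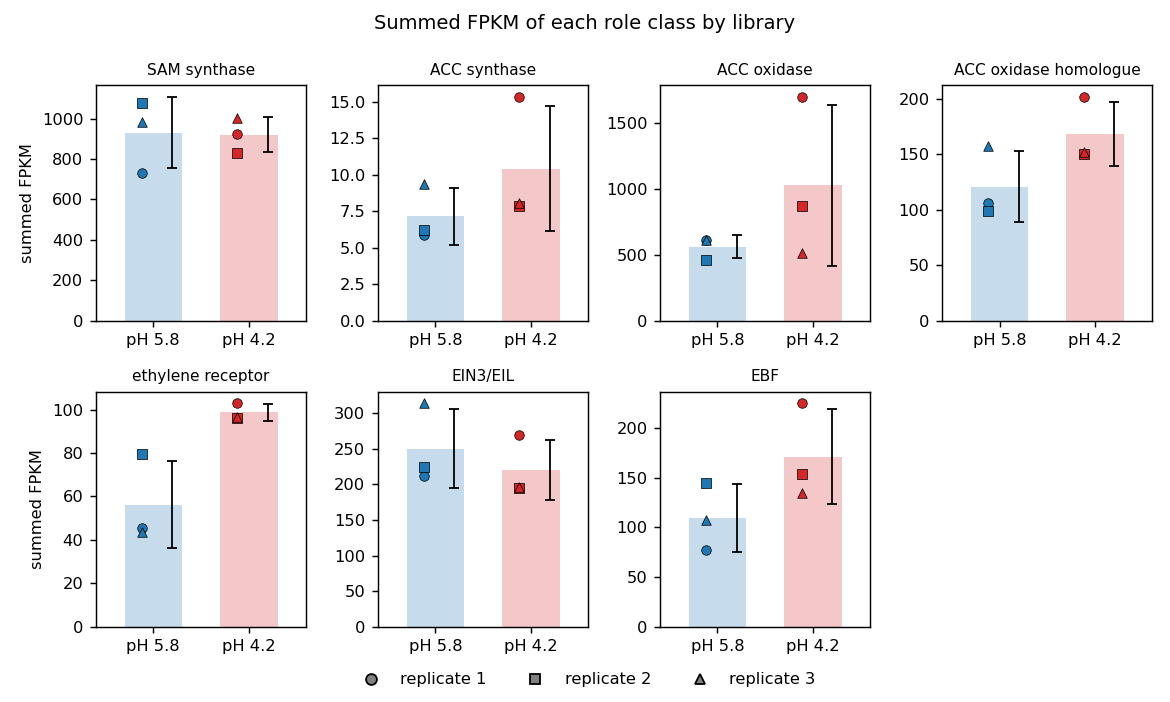
Summed FPKM of each role class (vertical axes, each starting at 0) by pH; markers show the 3 libraries of each group, bars the mean and whiskers 1 SD. For ACC oxidase the acid-treated libraries spread from 514 to 1700, whereas for the receptors they lie between 96.2 and 103, all above the controls (43.6 to 79.3).

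Behind this sum lay 2 patterns. In the first, the 3 acid-treated libraries were alike and all above the controls. On the CPM scale all 3 were above the controls in 4 of the 21 ACC oxidase genes tested (19%, against 7.17% of all genes). Glyma.05G222400 was the most pronounced of them. Its FPKM was 9.17, 7.18 and 1.04 in the controls and 52.7, 72.4 and 69.2 at pH 4.2. The lowest acid-treated library was well above the highest control, and the group means were 5.8 ± 4.24 and 64.8 ± 10.6 (SD, n = 3 each). The log2 fold change was 3.48 (SE 0.61), with an edgeR adjusted p of 0.0586 that missed the threshold and a DESeq2 adjusted p of 5.64e-08. It ranged from 2.99 to 3.99 when each library was left out, and of those 6 fits edgeR called the gene only without control replicate 3 (adjusted p = 0.0128).

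Glyma.07G129000, with the description ACC oxidase 1-like, followed the same order at a lower level. Its FPKM was 4.52, 4.78 and 1.41 in the controls and 14.9, 10.9 and 14.4 at pH 4.2, without overlap. The log2 fold change was 1.92 (SE 0.42, edgeR adjusted p = 0.104, DESeq2 adjusted p = 0.0016). In both genes control replicate 3 was the lowest library.

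Glyma.04G227900 had the smallest p of all ethylene genes. Its FPKM was 4.42, 5.28 and 4.57 in the controls and 9.28, 13.2 and 12.9 at pH 4.2. Controls were within 1 FPKM of each other and all acid-treated libraries were higher, giving a log2 fold change of 1.33 (SE 0.23, edgeR adjusted p = 0.0538, DESeq2 adjusted p = 0.000699). Of the fits that leave out 1 library, edgeR called it only without control replicate 2 (adjusted p = 0.0292), as it did without the filter and with RLE size factors. Glyma.06G137000 (5.39, 6.59 and 6.99 against 12.4, 14.6 and 9.67) likewise did not overlap, with a log2 fold change of 0.93 (SE 0.22, edgeR adjusted p = 0.13). These last 2 genes share the description ACC oxidase 5-like but carry KEGG terms other than K05933, the term of ACC oxidase, so whether they make ethylene is not known from the files. Another gene with this description and without K05933, Glyma.13G147600, had overlapping groups (3, 8.01 and 3.16 against 7.47, 6.65 and 11.7). Its log2 fold change was 0.88 (SE 0.42, edgeR adjusted p = 0.47), and edgeR called it only without control replicate 2 (adjusted p = 0.04999).

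In the second pattern, the level was highest in acid replicate 1, intermediate in acid replicate 2 and at or below the controls in acid replicate 3. Glyma.15G112700 had an FPKM of 25, 21.3 and 21.1 in the controls and 205, 73.6 and 15.4 at pH 4.2. The controls differed little, while the acid-treated libraries differed 13.3-fold between the highest and the lowest, and acid replicate 3 was the lowest of all 6. Its log2 fold change of 2.15 (SE 0.74, edgeR adjusted p = 0.29) became 0.98 without acid replicate 1, with an unadjusted p of 0.109.

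A run of 3 neighbouring identifiers, all with the description ACC oxidase, repeated this order. Glyma.14G049000 had an FPKM of 2.66, 0.9 and 2.78 in the controls and 107, 14.9 and 0.68 at pH 4.2. Glyma.14G049200 had an FPKM of 4.54, 3.63 and 5.77 in the controls and 82.7, 13.4 and 2.07 at pH 4.2. Glyma.14G049500 had an FPKM of 3.26, 3.23 and 4.88 in the controls and 46.9, 8.96 and 3.67 at pH 4.2. In the first and second of these genes acid replicate 3 was below every control, and in the third it lay among them.

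Their log2 fold changes were 4.27 (SE 1.37), 2.85 (SE 1.05) and 2.41 (SE 0.83), with edgeR adjusted p-values of 0.252, 0.32 and 0.289. Without acid replicate 1 they were 1.79, 0.73 and 0.72, and none kept an unadjusted p under 0.05. DESeq2 called the third alone (adjusted p = 0.0263). RSEM had divided reads between near-identical genes here, since the first and second had counts that were not whole in all 6 libraries and the third in 2, so that the share of each gene is uncertain. Their summed counts, which do not depend on how reads were divided among the 3, were 124, 92.1 and 160 in the controls and 2816, 444 and 70 at pH 4.2.

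Glyma.08G050400 was nearly silent outside 2 libraries. It had 1, 0 and 0 counts in the controls and 375, 40 and 0 at pH 4.2, the last being a library in which up to 3 counts could have been missed. This corresponded to an FPKM of 37.6 in acid replicate 1 and 3.94 in acid replicate 2. It did not pass the filter in the fit to all libraries, and DESeq2 gave it an adjusted p of 0.142. Glyma.02G268000 kept the order at a smaller size, with an FPKM of 4.31, 3.7 and 3.72 in the controls and 15.9, 8.59 and 3.48 at pH 4.2 (log2 fold change 1.22, SE 0.49, edgeR adjusted p = 0.375). Without acid replicate 1 the log2 fold change was 0.57, with an unadjusted p of 0.21.

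The most abundant ACC oxidase gene, Glyma.09G008400, held between 26.3% and 50.2% of the class's summed FPKM. Its FPKM was 295, 186 and 288 in the controls and 854, 364 and 135 at pH 4.2. Acid replicates 1 and 2 were above and acid replicate 3 was below every control, and the log2 fold change of 0.84 (SE 0.59, edgeR adjusted p = 0.646) became -0.044 without acid replicate 1. The next, Glyma.07G264200, had an FPKM of 125, 60.8 and 104 in the controls and 104, 128 and 122 at pH 4.2. It showed neither pattern, with overlapping groups and a log2 fold change of 0.30 (SE 0.30, edgeR adjusted p = 0.747).

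**Figure D3:**
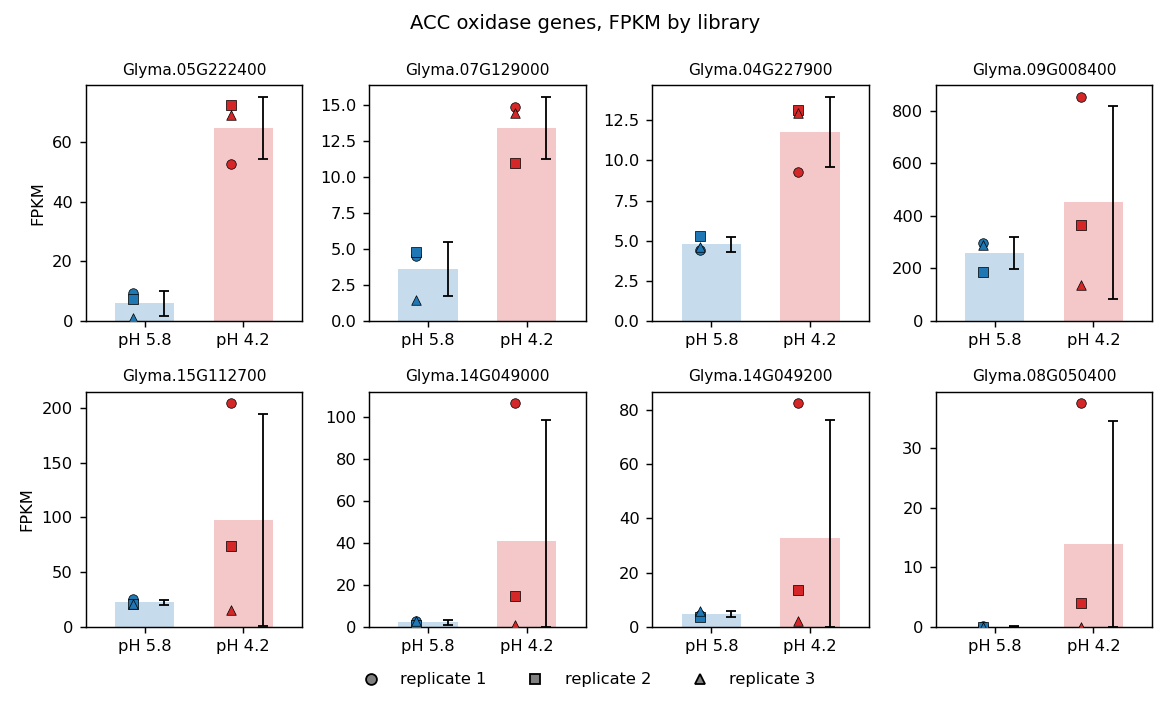
FPKM (vertical axes, each starting at 0) of 8 ACC oxidase genes by pH; markers show the 3 libraries of each group, bars the mean and whiskers 1 SD, cut at 0 where the SD is larger than the mean. In Glyma.05G222400 the acid-treated libraries (52.7 to 72.4) are alike, whereas in Glyma.14G049000 they range from 0.68 to 107.

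KEGG annotation divided the class. Of the 15 genes with K05933, 13 were tested, 11 of them with a log2 fold change above 0 (49.7% of all genes tested). Of the 13, 7 were higher at an unadjusted p under 0.05 (4.21% of all genes tested), and the median log2 fold change was 1.22. Without acid replicate 1, only Glyma.05G222400 and Glyma.07G129000 of these 7 kept an unadjusted p under 0.05. Of the 15 genes, 8 had their highest FPKM in acid replicate 1, while 13.5% of all genes tested had their highest CPM there. The 8 genes without K05933 had a median log2 fold change of 0.045, 2 were higher at an unadjusted p under 0.05 and 0 had their highest value in acid replicate 1. The 2 that were higher, Glyma.04G227900 and Glyma.06G137000, kept an unadjusted p under 0.05 without acid replicate 1. The 2 sets were not tested against each other.

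The 19 genes described as ACC oxidase homologues matched the rule by name, but none carried K05933, and all had 1 of 2 other KEGG terms. Homologues of this kind belong to the same large family of iron-dependent oxygenases, and their substrates are mostly unknown. Glyma.08G307000 and Glyma.18G111000 carry the RefSeq symbol F6'H1, which is not a name of ACC oxidase. The homologues shared no direction, with 6 of 15 log2 fold changes above 0 (40%, against 49.7% of all genes) and a median of -0.24. Glyma.08G351900 differed most, with an FPKM of 11.2, 22.8 and 28.1 in the controls and 96.5, 54.7 and 72 at pH 4.2. All acid-treated libraries were above all controls, and the log2 fold change was 1.87 (SE 0.37, edgeR adjusted p = 0.0827, DESeq2 adjusted p = 8.02e-05).

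Among the other homologues, Glyma.09G144800 was higher (6.14, 6.15 and 11 against 15, 14 and 14.2, log2 fold change 0.90, SE 0.26, edgeR adjusted p = 0.203). A pair of neighbouring identifiers was lower. Glyma.15G257600 had an FPKM of 2.92, 1.05 and 2.89 in the controls and 1.01, 0.7 and 0.28 at pH 4.2, and Glyma.15G257500 had 9.87, 2.96 and 9.27 against 3.82, 3.54 and 2.98. In both, control replicate 2 was close to the acid-treated libraries, which it overlapped in the second gene. Their log2 fold changes were -1.83 (SE 0.58) and -1.08 (SE 0.43), with edgeR adjusted p-values of 0.243 and 0.366, and without control replicate 2 edgeR called the second. The abundant Glyma.07G168500 showed no stable direction (log2 fold change -0.24, and from -0.55 to 0.16 when each library was left out).

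Ethylene receptors are related to two-component histidine kinases, and in Arabidopsis they repress the response until ethylene binds. All 5 soybean genes with this description were tested, and all had log2 fold changes above 0 (49.7% of all genes tested). In 4 of the 5, all acid-treated libraries exceeded all controls (7.17% of all genes tested). The summed FPKM of the 5 genes was 45.7, 79.3 and 43.6 in the controls and 103, 96.2 and 96.7 at pH 4.2. The acid-treated libraries were nearly equal (98.7 ± 3.88, SD, n = 3), in contrast to their spread for ACC oxidase, and control replicate 2 was the control nearest to them. Leghemoglobin, a nodule marker, had a summed FPKM of 112, 181 and 109 in the controls and 180, 163 and 188 at pH 4.2. Control replicate 2 was again the highest control, but here it lay among the acid-treated libraries. The part of leghemoglobin, like that of the Casparian strip genes, in the receptor levels was not tested.

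Glyma.U042100, on a scaffold not placed on a chromosome and described as ethylene receptor 2, differed most. Its FPKM was 0.96, 3.6 and 2.03 in the controls and 7.68, 6.72 and 7.68 at pH 4.2. The lowest acid-treated library was well above the highest control, and the log2 fold change was 1.76 (SE 0.48, edgeR adjusted p = 0.173, DESeq2 adjusted p = 0.0194). Without control replicate 2, edgeR called it with an adjusted p of 0.0194.

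Glyma.10G188500, also described as ethylene receptor 2, had an FPKM of 11.7, 23 and 6.42 in the controls and 28.6, 28.6 and 30 at pH 4.2. The groups did not overlap, although control replicate 2 came near, and the log2 fold change was 1.11 (SE 0.39, edgeR adjusted p = 0.3). Glyma.20G202200, the most abundant receptor gene, had an FPKM of 14.7, 31.1 and 15.2 in the controls and 38, 32.5 and 35.6 at pH 4.2. Here control replicate 2 lay just under the lowest acid-treated library, and the log2 fold change was 0.83 (SE 0.32, edgeR adjusted p = 0.347). Both genes were called by edgeR without control replicate 2, a fit that called 3.26% of all genes tested and 6 of 67 ethylene genes.

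The remaining receptor genes, whose descriptions do not give a number, differed less. Glyma.12G241700 had an FPKM of 10.5, 13.1 and 10 in the controls and 14.7, 16.8 and 14.8 at pH 4.2, a log2 fold change of 0.49 (SE 0.20, edgeR adjusted p = 0.374). Glyma.09G002600 had 7.82, 8.5 and 10 in the controls and 14.2, 11.5 and 8.66 at pH 4.2, and the groups overlapped through acid replicate 3 (log2 fold change 0.42, SE 0.23, edgeR adjusted p = 0.538). All 5 genes had counts that were not whole in at least 1 library, so reads had been shared with similar genes.

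**Figure D4:**
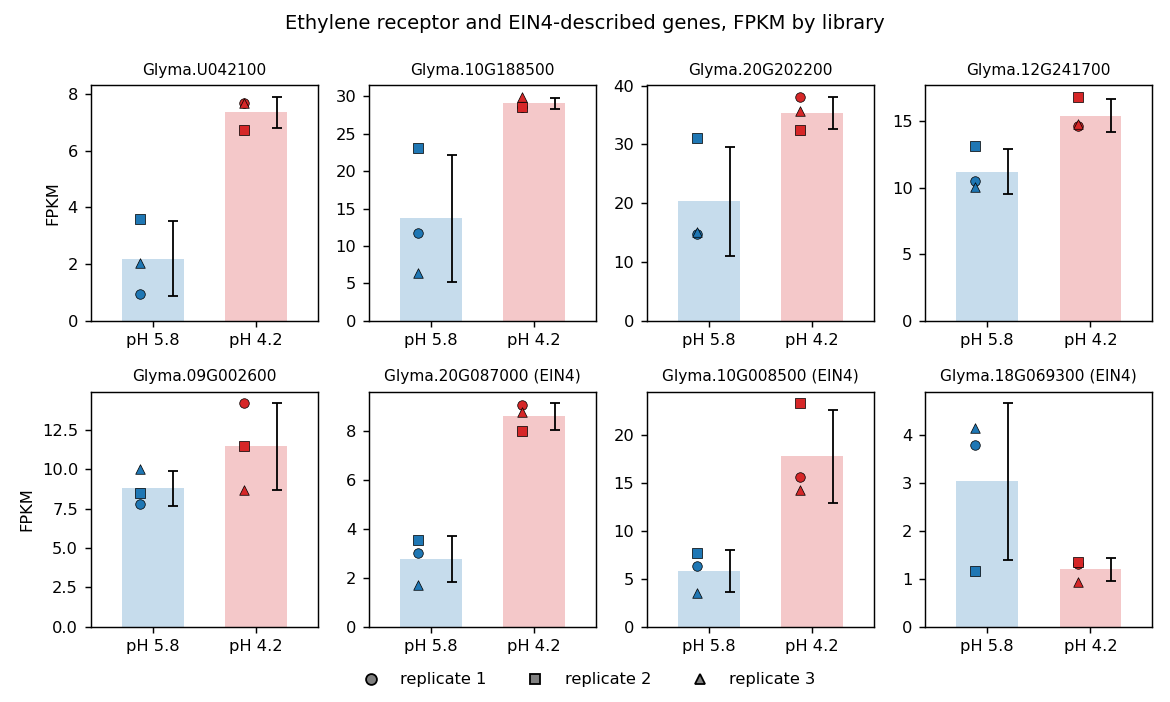
FPKM (vertical axes, each starting at 0) of the 5 ethylene receptor genes and of 3 genes described as EIN4, by pH; markers show the 3 libraries of each group, bars the mean and whiskers 1 SD. Control replicate 2 (squares) is the highest control in 4 of the 5 receptor genes, and Glyma.18G069300 is the only one of the 8 with a lower mean at pH 4.2.

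EIN4 is a further ethylene receptor in Arabidopsis. The 7 genes described as EIN4 fell outside the rule but belong to the same step. At an unadjusted p under 0.05, 2 of them were higher (4.21% of all genes tested) and 1 lower (7.61% of all genes tested). Glyma.20G087000 had an FPKM of 3.03, 3.53 and 1.72 in the controls and 9.04, 7.98 and 8.74 at pH 4.2, with a log2 fold change of 1.66 (SE 0.29, edgeR adjusted p = 0.0586, DESeq2 adjusted p = 0.000168). Glyma.10G008500 had 6.32, 7.74 and 3.49 in the controls and 15.7, 23.4 and 14.3 at pH 4.2, with a log2 fold change of 1.61 (SE 0.33, edgeR adjusted p = 0.0917, DESeq2 adjusted p = 0.00155). In both, every acid-treated library was above every control, and control replicate 3 was the lowest library. Glyma.18G069300 had an FPKM of 3.8, 1.16 and 4.15 in the controls and 1.3, 1.36 and 0.93 at pH 4.2, so control replicate 2 was at the level of the acid-treated libraries (log2 fold change -1.21, SE 0.38, edgeR adjusted p = 0.246). Without control replicate 2, edgeR called all 3 of these genes, with adjusted p-values of 0.0232, 0.0338 and 0.0278.

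EIN3 and its relatives are the transcription factors at the end of the pathway, and in Arabidopsis they are controlled mainly through protein stability. Of 11 genes, 8 were tested, and their summed FPKM was 212, 225 and 315 in the controls and 269, 195 and 197 at pH 4.2, with overlapping groups. The most abundant were Glyma.02G274600 (48.4, 66.7 and 78.8 against 64.3, 51.7 and 57.9) and Glyma.20G051500 (57.5, 47.1 and 81.6 against 71.6, 48.6 and 44.4). Their log2 fold changes were -0.13 (SE 0.26) and -0.14 (SE 0.30), and both changed sign without control replicate 3.

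Only Glyma.15G031800, described as EIN3-like 3, had an unadjusted p under 0.05 in this class. Its FPKM was 11.5, 10.3 and 15.2 in the controls and 9.35, 7.39 and 7.37 at pH 4.2, all acid-treated libraries being below all controls (log2 fold change -0.59, SE 0.22, edgeR adjusted p = 0.323). The largest estimate of the class belonged to the weakly expressed Glyma.18G018400 (0.65, SE 0.68, edgeR adjusted p = 0.76), which was not distinguishable from 0.

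EBF proteins are the F-box subunits that mark EIN3 for degradation. Of the 7 genes, the 5 that carry the KEGG term K14515 were all highest in acid replicate 1, as were 13.5% of all genes tested. Their summed FPKM was 68, 136 and 95.4 in the controls and 217, 146 and 127 at pH 4.2. Control replicate 2 lay between acid replicates 2 and 3, so the groups overlapped.

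Glyma.13G166200 had an FPKM of 5.02, 7.98 and 7.71 in the controls and 19.9, 11.5 and 9.05 at pH 4.2, without overlap (log2 fold change 0.996, SE 0.33, edgeR adjusted p = 0.262). Glyma.04G147000 had 3.97, 5.62 and 5.73 in the controls and 16.8, 8.8 and 5.64 at pH 4.2, acid replicate 3 being level with the controls (log2 fold change 1.06, SE 0.39, edgeR adjusted p = 0.315). Glyma.17G113900 had 20.1, 35 and 15 in the controls and 46.6, 37.8 and 35.8 at pH 4.2, with control replicate 2 just under the lowest acid-treated library (log2 fold change 0.80, SE 0.33, edgeR adjusted p = 0.386). None of the 3 kept an unadjusted p under 0.05 without acid replicate 1 (0.0601, 0.112 and 0.114).

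A pair of abundant EBF genes had overlapping groups. Glyma.14G116800 had an FPKM of 20.6, 51.1 and 39.1 in the controls and 78.5, 51.7 and 45 at pH 4.2, and Glyma.04G066900 had 18.3, 36.1 and 27.9 against 55.1, 35.9 and 31.7. Control replicate 1 was the lowest and acid replicate 1 the highest library in both, and their log2 fold changes were 0.69 (SE 0.37) and 0.60 (SE 0.32). The 2 EBF genes without K14515, Glyma.13G367200 and Glyma.07G026100, had log2 fold changes of -0.34 and -0.25.

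The order of the acid-treated libraries was compared across the classes. Of the 65 ethylene genes tested, 20 (30.8%) had their highest CPM of the 6 libraries in acid replicate 1, against 13.5% of all genes tested. Acid replicate 1 was at least 2 times acid replicate 3 in 16 of the 65 (24.6%), against 7.23% of all genes. Of these 16, 8 were ACC oxidase genes, and the others were 4 homologues, 2 EBF genes, 1 ACC synthase and 1 SAM synthase gene, with 0 receptor and 0 EIN3-like genes. Of the other pathway genes described below, 0 of 46 showed a ratio of this size.

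The 18 genes that were higher at an unadjusted p under 0.05 divided accordingly. In 13 the acid-treated libraries were all above the controls on the CPM scale, and in the other 5, all ACC oxidase genes, acid replicate 3 was not. On the FPKM scale the EBF gene Glyma.04G147000 joined these, so that acid replicate 3 was at or below a control in 6 genes. Without acid replicate 1, 8 of the 18 kept an unadjusted p under 0.05, namely 4 ACC oxidase, 2 homologue and 2 receptor genes. Of these, the ACC oxidase genes Glyma.04G227900 and Glyma.06G137000 and both homologues do not carry K05933, the KEGG term of ACC oxidase. No other ethylene gene reached that threshold in that direction (8 of 67 tested, 11.9%, against 3.49% of all genes). The genes of alcohol dehydrogenase 1 and pyruvate decarboxylase, taken here as low-oxygen markers, were also higher at pH 4.2 but in another order. The paper places genes of both enzymes in a pH stat pathway, which serves pH homeostasis in plant cells and consumes protons. Whether their levels here went with oxygen supply or with acidity itself was not tested. The 6 genes of alcohol dehydrogenase 1 summed to an FPKM of 308, 487 and 203 in the controls and 969, 1264 and 1332 at pH 4.2, and the 7 genes of pyruvate decarboxylase to 180, 204 and 65.1 in the controls and 397, 544 and 654. Acid replicate 1 was the lowest acid-treated library for both, and the part of oxygen supply in the ethylene genes was not tested. In root samples of mixed cells, fewer cells of a type and less RNA per cell cannot be told apart.

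**Figure D5:**
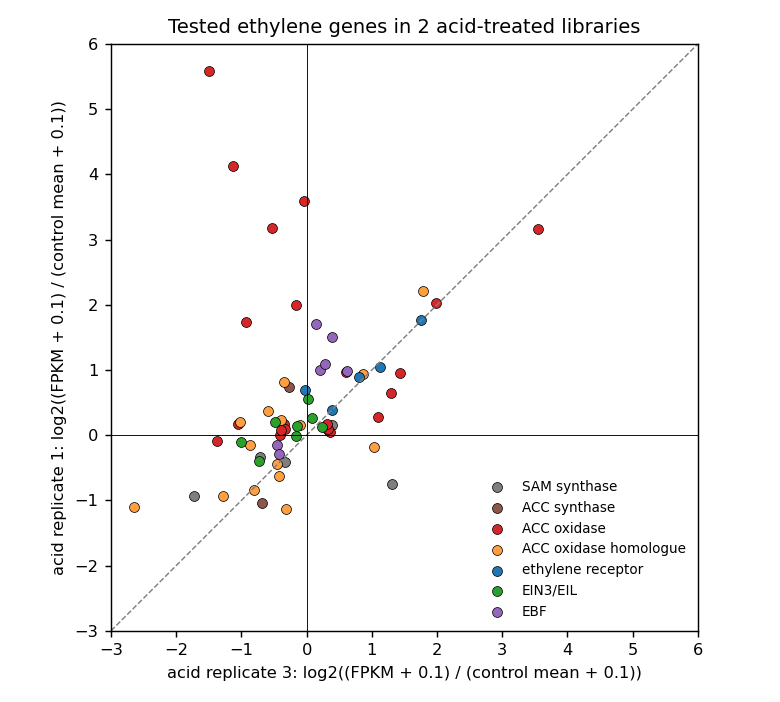
Level in acid replicate 1 (vertical axis) against acid replicate 3 (horizontal axis) for the 65 tested ethylene genes, each as log2 of (FPKM + 0.1) over (control mean + 0.1); colours give the role class and the dashed line marks equal values. ACC oxidase genes reach 5.59 in acid replicate 1 while below 0 in acid replicate 3, whereas Glyma.05G222400 is high in both (3.16 and 3.55).

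The other genes of the pathway, chosen by a list of 14 description phrases with earlier results of these data known, were 50, of which 46 were tested. Of these, 2 were higher (4.35%, against 4.21% of all genes) and 5 lower (10.9%, against 7.61%) at an unadjusted p under 0.05, which is near the background. EdgeR called 0 of the 46 (0.558% of all genes). DESeq2 called 3 of the 48 that it gave an adjusted p (6.25%, against 2.77% of all genes). Without control replicate 2 edgeR called 5 of 46 (10.9%, against 3.26% of all genes). Those 5 were the 3 EIN4 genes given above and 2 CTR1-like genes. Over the 46, the median log2 fold change was -0.11. CTR1 is the kinase that represses the pathway, and 3 of 11 tested genes with this description were lower at an unadjusted p under 0.05 (7.61% of all genes) and 0 higher. The description CTR1-like also covers related kinases whose role is not known.

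Glyma.02G215300, described as CTR1-like, had an FPKM of 10.6, 5.37 and 12.5 in the controls and 3.44, 3.94 and 3.85 at pH 4.2. All acid-treated libraries were below all controls, with a log2 fold change of -1.34 (SE 0.29, edgeR adjusted p = 0.102, DESeq2 adjusted p = 0.00644), and its counts were not whole in all 6 libraries. Glyma.08G126000 had 19.7, 11.2 and 26.8 in the controls and 9.82, 8.93 and 7.77 at pH 4.2, again without overlap (log2 fold change -1.11, SE 0.31, edgeR adjusted p = 0.184). In both, control replicate 2 was the control nearest to the acid-treated libraries, and without it edgeR called both (adjusted p = 0.00815 and 0.019).

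None of the 5 tested genes described as ethylene-insensitive protein 2, the soybean counterparts of EIN2, had an unadjusted p under 0.05, and their log2 fold changes lay between -0.48 and 0.046. Genes of the ETO1 family, which in Arabidopsis promotes the degradation of certain ACC synthases, also gave 0 of 10 at that threshold. In the methionine salvage cycle, which regenerates the substrate of ethylene synthesis, 1 enolase-phosphatase gene of 4 was lower at an unadjusted p under 0.05 (Glyma.20G091100, 55.2, 90.4 and 60.9 in the controls and 41.4, 36.9 and 44.6 at pH 4.2, log2 fold change -0.71, SE 0.27, edgeR adjusted p = 0.331).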

How the data were processed

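RNA of soybean roots was sequenced by the authors from 3 libraries at pH 5.8 and 3 at pH 4.2, grouped by the pH in the labels. The authors mapped the reads to Williams82.a2.v1 and gave for each gene an expected count from RSEM, an FPKM value and a gene length. The submitters' processing notes also name HISAT and Bowtie2, without versions. The deposited expected counts carry no normalization. RSEM shares reads between similar genes, so some counts are not whole. A gene not listed for a library was set to 0. The labels name CTAB-PBIOZOL for RNA extraction and the study's methods another kit.

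Expected counts were rounded and tested with edgeR 4.0.16 (R 4.3.3), with TMM factors, filterByExpr, a quasi-likelihood fit (robust, no block) and Benjamini-Hochberg adjustment over all genes tested. FPKM was used for levels, since it is per length. Alternatives were DESeq2 1.42.0, RLE size factors, no filter, a mean count of at least 50, limma 3.58.1 (trend) with pseudocounts of 0.1 and 1 on log2 FPKM, the replicate block and each library left out. Fold changes on the log2(FPKM + pseudocount) scale understate low genes. On counts simulated with 4-fold changes, edgeR recovered 95.5% of 200 changed genes, with 13 false calls. DESeq2 recovered 93.5% of them, with 30 false calls. These shares are not carried over to genes with fewer counts, with smaller changes or with libraries that differed more within a group than was simulated. Glyma.14G049000, with a log2 fold change of 4.27 and an SE of 1.37, was not called by edgeR. The limit given for a count of 0 covers counting error only, whereas standard errors, SDs and p-values measure the spread between libraries.

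The ethylene genes and the lists were chosen with earlier results of these data known. Named are those called by DESeq2, the 15 with the smallest p, the 2 most abundant and the most changed of each class, and 5 other pathway genes. Glyma.08G050400, Glyma.09G255000, Glyma.18G238100, Glyma.07G026100, Glyma.13G367200 and others outside this rule were chosen after their values were seen. A RefSeq table (Glycine_max_v4.0) gave symbols for 78 of the 88 genes and was used for names only. No sequences or coordinates are given, and promoter motifs were not analysed here.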

Additional observations from a re-analysis of the deposited data

How the results depend on the processing

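Replicate numbers did not pair the libraries, the correlations of same-numbered deviations being -0.13, -0.054 and -0.37. With the replicate block, 61 genes were called in all. Of the 65 ethylene genes in this fit, 0 were called, and 11 were higher and 1 lower at an unadjusted p under 0.05 (median log2 fold change 0.24). The shares of all genes at that threshold are not set beside these counts, so nothing is read from them.

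All genes called numbered 187 with edgeR, 1060 with DESeq2 and 323 without the filter. Ethylene genes called were 0 of 65 with edgeR (0.558% of all genes) and 6 of 74 with DESeq2 (8.11%, against 2.77% of all genes). They were 2 without the filter, 1 with RLE size factors and 1 with limma-trend on log2(FPKM + 1). For these last settings the shares of all genes are not set beside the counts, so nothing is read from them. When each library was left out, all genes called ranged from 7 to 1122, ethylene genes called from 0 to 6 and the median from 0.11 to 0.33. Those higher ranged from 8 to 18 (11.9% to 26.9%, against 2.86% to 7.5% of all genes). Those lower ranged from 1 to 8 (1.49% to 11.9%, against 4.4% to 11.3% of all genes). The count of 8 lower came without control replicate 2, near the share of all genes in that fit (11.9%, against 11.3%). The lowest count of higher genes was without acid replicate 1 and the highest count called was without control replicate 2, when 6 of 67 (8.96%, against 3.26% of all genes) were called. Without control replicate 1 or 3, 10 were higher in each case. The cause was not tested.

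Of 34 named genes with a fit, 431 of 438 values under the alternatives kept their direction. The 7 reversals, in 6 genes, all came from leaving out 1 library. The log2 fold change ranged from -0.057 to 0.69 for Glyma.05G211700, from -0.044 to 1.28 for Glyma.09G008400, from -0.55 to 0.16 for Glyma.07G168500, from -0.011 to 0.43 for Glyma.15G190500, from -0.29 to 0.028 for Glyma.02G274600 and from -0.40 to 0.095 for Glyma.20G051500. Over all alternatives, the adjusted p ranged from 5.64e-08 to 0.251 for Glyma.05G222400, from 0.0016 to 0.325 for Glyma.07G129000, from 0.000699 to 0.305 for Glyma.04G227900, from 8.02e-05 to 0.214 for Glyma.08G351900, from 0.0263 to 0.728 for Glyma.14G049500 and from 0.0194 to 0.495 for Glyma.U042100 (edgeR, DESeq2 and limma). The filter on low counts limited the ACC synthase genes most, since 12 of 14 were not tested.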
